A study of Chelidonium majus with 4 samples.

Results

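The 10 assembled contigs of *Chelidonium majus* (greater celandine) described here carry the label *P6H* (protopine 6-hydroxylase) in the pathway drawing of the study, and their levels were followed in root and leaf. They were chosen by identifier, 10 of the 232701 contigs of the assembly, and not by their counts. By the numbering of the identifiers, 9 of them, TR12321 to TR12329, are the whole of 1 assembly component (TR1232 below), that is a set of contigs put together from overlapping reads, whereas TR12781 is alone in its component. The drawing gives the same label to further contigs, which were not analysed here. The table of counts holds no gene names, so the label rests on the drawing alone.

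RNA was sequenced from 2 root libraries, named root 2 and root 4, and 2 leaf libraries, named leaf 3 and leaf 4. All 4 came from greenhouse plants of 1 collection that the study describes as rich in the alkaloid chelidonine, and the labels name no treatment. The study calls the 2 libraries of a tissue biological replicates. The sources used here state no plant age and do not say which plant or plants each library came from, so p-values measure the spread between these libraries only. Since no contig is named, the tissue labels could not be checked against marker genes. In whole organs, a lower level can stand for fewer cells that hold the RNA or for less RNA per cell, and these cannot be told apart.

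P6H is a cytochrome P450 enzyme of the poppy family. It adds a hydroxyl group to protopine, and the product rearranges by itself to dihydrosanguinarine, which an oxidase (DBOX) turns into sanguinarine, an orange-red benzophenanthridine alkaloid that defends the plant against microbes and grazers. The enzyme was characterised in California poppy. The steps just before it are those of tetrahydroprotoberberine *cis*-N-methyltransferase (*TNMT*), which methylates stylopine, and of methylstylopine hydroxylase (*MSH*), another P450, which makes protopine.

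The libraries held 15281682 to 19781065 estimated counts. Levels are given as CPM (counts scaled to a common library size) normalized with TMM, a scaling that evens out the bulk of the contigs, and 1 count stood for 0.0484 to 0.0711 of this unit. Contig lengths are not in the table, so levels are compared between libraries and no contig is called more abundant than another. Where counts or levels of several contigs enter 1 share, sum or distance, as they do further on, a longer contig weighs more. Contigs c1 to c33, an abundant group with neighbouring numbers, made up 22.1% of library root 2 and 2.41% of library root 4, against 8.02% of leaf 3 and 0.323% of leaf 4. The TMM factors were 0.729 for root 2 and 1.23 for root 4, against 1.03 for leaf 3 and 1.09 for leaf 4.

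All 10 contigs were far higher in root than in leaf, by 15.0-fold for TR12781|c35932_g1_i1 to 68.7-fold for TR12324|c30378_g1_i1 in the fitted values. In leaf, 7 of the 10 lay under 1 normalized CPM in both libraries. The lowest root library stood 12.0 to 44.1 times above the highest leaf library, contig by contig, so that the tissues did not overlap for any of the 10. Both root libraries also lay above both leaf libraries for 36.5% of all 47385 tested contigs, those above 1 CPM in 2 or more libraries. The 7 contigs passed this limit in the root libraries alone. Before TMM scaling, the order of the tissues was thus fixed for them by the filter, though not the size of the gap.

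**Figure D1:**
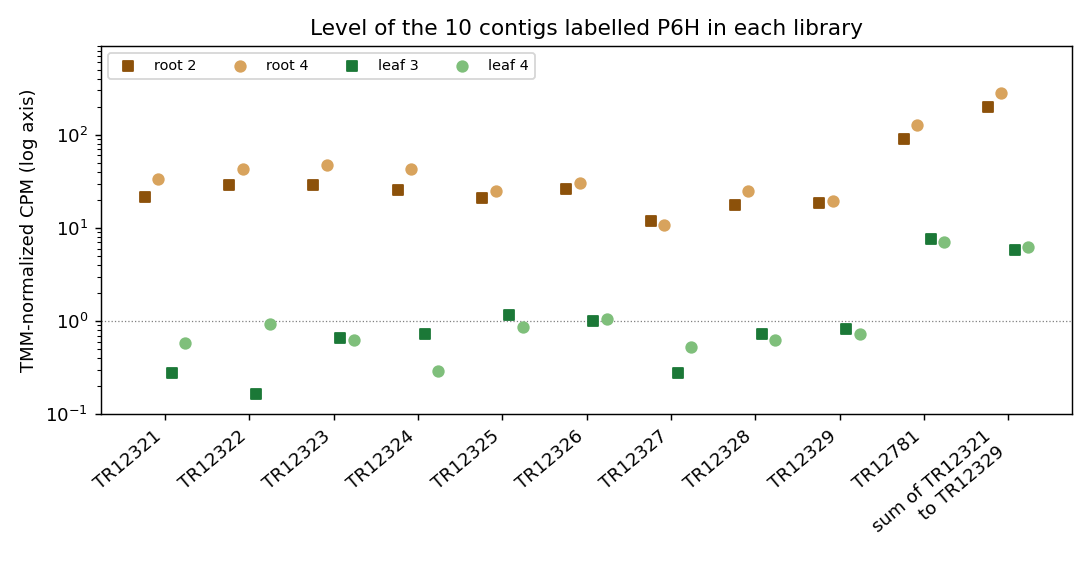
TMM-normalized CPM (log axis) of each of the 10 contigs and of the sum of TR12321 to TR12329, with 1 point per library (dark brown root 2, light brown root 4, dark green leaf 3, light green leaf 4). Every root point lies above every leaf point of the same contig, and the dotted line marks 1 CPM, under which 7 contigs lie in both leaf libraries.

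The first contigs of the component had the widest gaps between tissues. TR12321|c30375_g1_i1 reached 21.7 normalized CPM in root 2 and 33.3 in root 4, against 0.276 in leaf 3 and 0.581 in leaf 4. For TR12322|c30376_g1_i1 the root values were 28.9 and 43.4, against 0.166 and 0.920 in leaf. Behind the leaf values of TR12322 are 3 counts in leaf 3 and 19 in leaf 4, whose exact 95% Poisson intervals (0.619 to 8.77 and 11.4 to 29.7, counting error only) do not overlap. It is the only contig described here of which this is true, since the leaf intervals of each of the others overlap.

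TR12323|c30377_g1_i1 had close leaf values, 0.663 and 0.629, beneath 29.2 in root 2 and 47.2 in root 4. TR12324|c30378_g1_i1 reached 25.9 and 43.3 in the root libraries, against 0.718 in leaf 3 and 0.290 in leaf 4, or 13 and 6 counts. Leaf 4 was thus the higher leaf library for TR12321 and TR12322 and the lower one for TR12323 and TR12324. For TR12323 this order rests on the TMM scaling, since it had 12 counts in leaf 3 and 13 in leaf 4. In root, root 4 was the higher library for all 4, by at most 1.67 times.

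The next 5 contigs of the component lay closer together in the root libraries. TR12325|c30379_g1_i1 was at 21.1 and 24.7 normalized CPM in root 2 and root 4, against 1.16 and 0.871 in leaf 3 and leaf 4. TR12326|c30380_g1_i1 was at 26.2 and 30.7, against 0.994 and 1.06. These are the contigs of the component that touched 1 CPM in leaf.

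TR12327|c30381_g1_i1 was the only 1 of the 10 contigs that was lower in root 4 (10.8 normalized CPM) than in root 2 (11.8), and it had 0.276 and 0.532 in leaf, from 5 and 11 counts. Its order in root rests on the TMM scaling, since it had 166 counts in root 2 and 191 in root 4, the library with fewer counts in all. TR12328|c30382_g1_i1 had 17.6 and 25.0 in root 2 and root 4, against 0.718 and 0.629 in leaf, from 13 counts in each leaf library. TR12329|c30383_g1_i1 had 18.4 and 19.3 in root, against 0.828 and 0.726 in leaf, from 15 counts in each. Over these 5 contigs root 4 stood at 0.912 to 1.43 times root 2 with this scaling.

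TR12781|c35932_g1_i1, the contig outside the component, had 1273 counts in root 2 and 2284 in root 4, against 137 in leaf 3 and 146 in leaf 4. After scaling, this is 90.5 and 129 normalized CPM in root, against 7.57 and 7.07 in leaf. It was the only contig of the 10 well above 1 CPM in both leaf libraries, and its fold change was the smallest of the 10.

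The root to leaf difference was tested by the quasi-likelihood test of edgeR over the 47385 contigs above 1 CPM in 2 or more libraries. All 10 passed this filter, 7 of them in the root libraries alone, so that these 7 had to be higher in root to be tested. Calls required a Benjamini-Hochberg FDR below 0.001 and a change of 4-fold or more, the limits used in the study. The study used edgeR without naming the test within it, and its text places *P6H* higher in root. Called higher in root were 5 of the 10, TR12323, TR12325, TR12326, TR12328 and TR12329, against 0.443% of all tested contigs. With 1 library left out and the same contigs tested, the count was 10 without root 2, 10 without root 4, 10 without leaf 3 and 8 without leaf 4, beside 8.42%, 11.9%, 4.94% and 1.07% of all tested contigs in the same order. With the filter renewed on the 3 libraries left, it was 3 of the 3 still tested without root 2 (2.92% of all) or without root 4 (6.72% of all), 1 of 10 without leaf 3 (0.627% of all) and 0 of 10 without leaf 4, where no contig of the whole table was called higher in root (0%). With 1 library left out, the members tested had log2 fold changes of 3.63 to 7.71. With none left out, all 10 had an unadjusted p under 0.05 in the quasi-likelihood test, as did 22432 of the 47385 tested contigs. The largest log2 fold changes (root minus leaf) belonged to contigs that were not called. TR12324 had 6.10 ± 0.54 (SE) at an FDR of 0.00138 and TR12322 had 6.01 ± 0.70 at 0.00283, while TR12323, which was called, had 5.87 ± 0.40 at 0.000901.

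Apart from TR12781, the contigs that were not called were those with the widest spread in leaf. The 2 leaf libraries of TR12322, TR12324, TR12321 and TR12327 had coefficients of variation of 98.2%, 60.0%, 50.3% and 44.8%, and none of these 4 was called. In the 5 called contigs it was 3.67% to 20.1%. TR12781, with 4.83% in leaf and 24.7% in root, was not called at 3.90 ± 0.33 (log2 fold change, SE) and an FDR of 0.00124. The limit itself was narrow, since the lowest FDR of any tested contig was 0.000879 and the 10 lay between 0.000879 and 0.00283. With the FDR limit set to 0.05 all 10 were called higher in root, against 10.6% of all tested contigs. By edgeR's exact test at the first limits all 10 were called too, against 9.91%. Over the whole table that test called 4698 contigs higher in root and 6081 higher in leaf. These totals lie nearer those of the study than the 210 and 688 of the quasi-likelihood test. The study does not say whether the 10 contigs were picked for a difference between tissues, so the counts of them called are a description of the label.

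**Figure D2:**
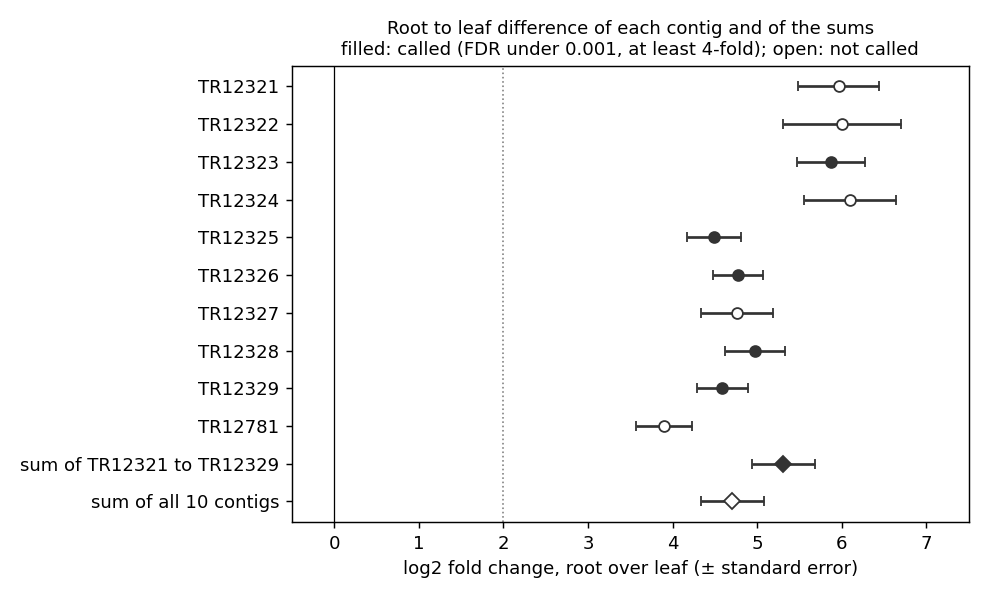
Log2 fold change (root over leaf, horizontal axis) with its standard error for each contig, for the sum of TR12321 to TR12329 and for the sum of all 10, from edgeR's quasi-likelihood test. Filled symbols are called and open ones are not, and the dotted line marks the limit of 2. Values run from 3.90 for TR12781 to 6.10 for TR12324, and the sums lie at 5.31 and 4.71.

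RSEM, the program behind the counts, divides reads among contigs of like sequence, so the value of 1 contig depends on how its neighbours were assembled. The counts of the 9 contigs were therefore added up. The sum for TR1232 was 2824 counts in root 2 and 4927 in root 4, against 105 in leaf 3 and 129 in leaf 4. This is 201 and 278 normalized CPM in root, against 5.80 and 6.24 in leaf, or 239 ± 54.4 in root against 6.02 ± 0.314 in leaf (mean ± SD, n = 2). The sum was called higher in root, by 5.31 ± 0.37 on the log2 scale (SE), at an FDR of 0.000912 in the same edgeR test. The means differed 39.7-fold. With the filter renewed, it was not called without leaf 3 (5.07, FDR 0.00468) or without leaf 4 (5.22, FDR 0.00690). Adding TR12781 gave 291 and 406 normalized CPM in root, against 13.4 and 13.3 in leaf. The log2 fold change of this sum of 10 was 4.71 ± 0.37 at an FDR of 0.00111, and it was not called.

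The coefficient of variation of the sum of 9 between the leaf libraries was 5.22%, within the range of its single contigs, which ran from 3.67% for TR12323 and 4.85% for TR12326 to 98.2% for TR12322. In root the sum had a coefficient of variation of 22.8%, with root 4 above root 2 by 1.38 times. A larger excess of root 4 was found in 27.7% of the tested contigs with counts in both root libraries, and the median over them was 0.960. The excess also depends on the scaling. It was 2.26 times with levels set to whole library totals, and 1.80 times after contigs c1 to c33, which filled more of root 2, were left out of the totals. The root to leaf ratio of means moved less, at 39.7 with TMM, 37.0 with whole totals and 39.2 without c1 to c33.

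The counts of TR1232 were also followed as shares of the component. The contigs TR12321 to TR12324 were grouped after their values were seen and are the 4 with the largest fold changes, so that a larger share in root follows from the choice and is given as a description. They took 52.7% of the counts of the component in root 2 (exact 95% binomial interval 50.8% to 54.5%) and 60.2% in root 4 (58.8% to 61.6%), against 31.4% in leaf 3 (22.7% to 41.2%) and 38.8% in leaf 4 (30.3% to 47.7%). The intervals cover counting error only and take the counts as independent draws, which RSEM's division of reads among like contigs does not make them.

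**Figure D3:**
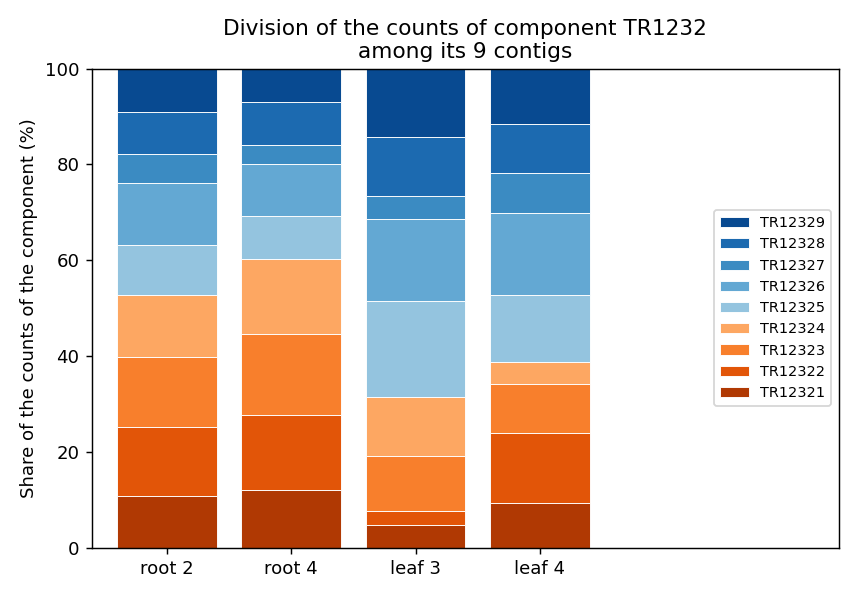
Share of the counts of component TR1232 (percent, vertical axis) that each of its 9 contigs took in each library. The orange part, TR12321 to TR12324, fills 52.7% and 60.2% of the bars of root 2 and root 4, and 31.4% and 38.8% of those of leaf 3 and leaf 4.

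Single contigs varied in whether both leaf libraries stood apart from root. TR12325 took 10.5% of the counts of the component in root 2 and 8.91% in root 4, against 20.0% in leaf 3 and 14.0% in leaf 4. TR12324 took 12.9% and 15.6% in root, against 12.4% in leaf 3 and 4.65% in leaf 4, so that its leaf 3 share was near its root shares. TR12322 took 14.4% and 15.6% in root, against 2.86% in leaf 3 and 14.7% in leaf 4, and here leaf 4 was near root.

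Whether the root to leaf ratio of a contig differed from that of the rest of its component was tested with edgeR's diffSpliceDGE over all components with at least 2 tested contigs. None of the 9 was called at an FDR under 0.05, against 2.92% of 38032 contigs, and none had an unadjusted p under 0.05 (0.0968 for TR12325 to 0.527 for TR12328). The estimates ran from 0.79 above the component for TR12324 to 0.82 below it (-0.82) for TR12325, on the log2 scale. All 4 of TR12321 to TR12324 were above and all 5 of TR12325 to TR12329 below. This split restates the grouping, since the 4 were set apart by their fold changes after the values were seen. The test takes the contigs as separate measurements, which RSEM's division of reads does not make them. A test of the component as a whole, added after the values were seen, gave an FDR of 0.563 over 9714 components.

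TR12781 was set beside the component as a share of the counts of the 10 contigs. It took 31.1% in root 2 (exact 95% binomial interval 29.7% to 32.5%) and 31.7% in root 4 (30.6% to 32.8%), against 56.6% in leaf 3 (50.1% to 62.9%) and 53.1% in leaf 4 (47.0% to 59.1%). The intervals, with the same limit, overlap within each tissue and not between tissues. The larger share in leaf restates the fold change of TR12781, the smallest of the 10. The difference in share between tissues was not tested over libraries.

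Set among all contigs, the members lay near the upper end without being at it. The fold change of TR12781 exceeded that of 94.1% of tested contigs and the fold change of TR12324 that of 95.8%. The median log2 fold change of the 10 was 4.87, beside 0.01 over all tested contigs. The 3 contigs whose 4 levels lay nearest to those of the sum of TR1232, by Euclidean distance of log2 CPM over 4 libraries, were TR4072|c143759_g1_i1, TR4074|c143761_g1_i1 and TR4075|c143762_g1_i1, at distances of 0.57, 0.60 and 0.63. They are contigs of 1 other component, without a gene name here. TR4072 was at 220 and 230 normalized CPM in root, against 8.01 and 6.82 in leaf, and its log2 fold change was 4.92.

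The steps before *P6H* were looked at through 21 contigs that carry the labels of 6 earlier enzymes in the same drawing and that earlier work on these data had named, in part for their levels or tissue differences. Their counts are therefore a description. Of the 21, 3 were called higher in root, all labelled *NCS* (norcoclaurine synthase, which opens the pathway), and 4 higher in leaf, all labelled *MSH*, beside 0.443% and 1.45% of all tested contigs. Of the 3 *NCS* contigs called, 2 had under 4 counts in leaf, as did 1 of the *MSH* contigs in root. With the FDR limit at 0.05, 15 passed as higher in root, namely both of tyrosine decarboxylase (*TYDC*), all 5 of *NCS*, 3 of 4 of *CNMT*, all 3 of *CYP80B1* and both of *TNMT*, and 6 passed as higher in leaf, namely 1 of *CNMT* and all 5 of *MSH*. Over all tested contigs these shares were 10.6% and 13.8%.

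The neighbouring steps went opposite ways under their printed labels. TR5701|c170889_g1_i1, labelled *TNMT*, had a level of 709 and 709 normalized CPM in root 2 and root 4, against 42.4 and 45.7 in leaf (log2 fold change 4.01 ± 0.38, FDR 0.00157). TR24662|c107744_g1_i1, labelled *MSH*, had 1.07 and 1.41 in root, against 24.9 and 28.9 in leaf (log2 fold change -4.42 ± 0.31, FDR 0.000911). The drawing and the text of the study use these names the opposite way round, so either name may belong to the other set of contigs.

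**Figure D4:**
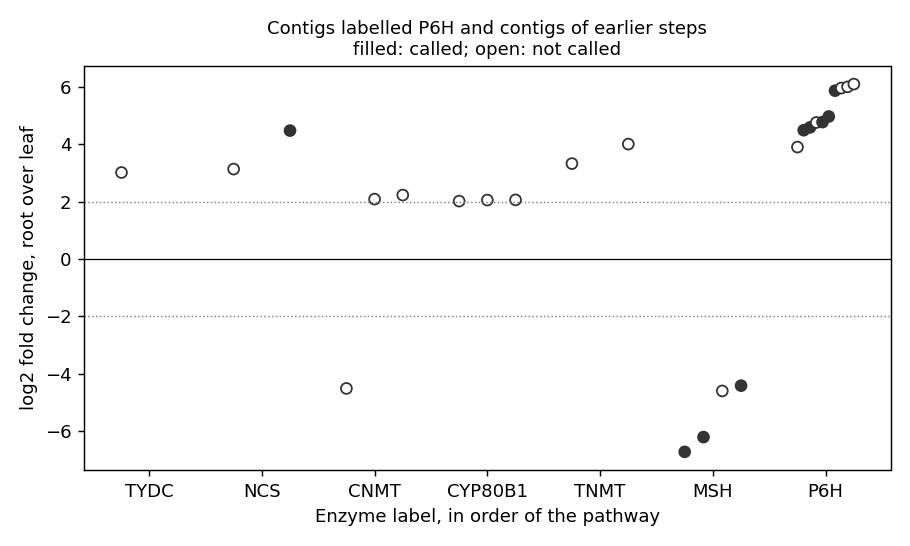
Log2 fold change (root over leaf, vertical axis) of the 10 contigs labelled *P6H* and of 15 contigs labelled with earlier enzymes of the pathway, in pathway order from left to right, with called contigs filled and others open. Another 6 contigs with under 4 counts in a tissue are left out. Of these, TR32821, TR32822 and TR32823 (*NCS*) and TR271211 (*CNMT*) had fitted values above all *P6H* contigs. The *P6H* contigs lie between 3.90 and 6.10, above the 3 of *CYP80B1*, and those labelled *MSH* lie below 0.

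Among the earlier steps with at least 4 counts in each tissue, the 3 contigs of *CYP80B1*, the P450 enzyme that hydroxylates N-methylcoclaurine, had log2 fold changes of 2.02 to 2.06. The 3 of *CNMT*, named after the enzyme that methylates coclaurine, had 2.09, 2.23 and -4.52. That of *TYDC* had 3.03, those of *NCS* had 3.14 and 4.48, and those of *TNMT* had 3.33 and 4.01. Among these, the higher contigs of *NCS* and *TNMT* lay within the range of the *P6H* contigs, 3.90 to 6.10. For the other 6 contigs, 5 of them higher in root, the fitted fold change depends on the prior count. TR32821, TR32822 and TR32823 (*NCS*) had fitted values of 10.7, 8.91 and 10.9, above all *P6H* contigs. TR32821 had 56.4 and 54.2 normalized CPM in root 2 and root 4, against 0 and 0.0484 in leaf 3 and leaf 4. The fitted value was 8.39 for TR271211 (*CNMT*), 6.04 for TR59161 (*TYDC*) and -8.40 for TR24661 (*MSH*). The difference between the enzymes in fold change was not tested.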

How the data were processed

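The authors aligned the paired-end reads of 2 root and 2 leaf libraries to a BinPacker assembly with Bowtie, estimated abundances with RSEM and deposited 1 table of estimated counts per contig (no versions are given in the sources used here; RSEM and edgeR are also listed in the submitters' processing notes). All values were whole, 0 columns were left unused, and no value was changed by rounding.

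From these counts, the 47385 contigs above 1 CPM in 2 or more libraries were scaled by TMM and tested for root against leaf with edgeR 4.0.16 (R 4.3.3), quasi-likelihood, with Benjamini-Hochberg adjustment. The common biological coefficient of variation was 0.335. The standard error of a log2 fold change was taken as its size over the root of the F statistic. Sums replaced the rows of their contigs before filtering. A component is a run of consecutive c numbers whose TR numbers share a prefix and count up from 1. Named were all 10 members, 21 pathway contigs and the 3 nearest contigs. Alternatives were the exact test, DESeq2 1.42.0, limma 3.58.1, other scalings, filters and limits, and each library left out. The code was tested on simulated data. Members, lists and tests were chosen with earlier results of these data known. No contig sequences were used here.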

Additional observations from a re-analysis of the deposited data

How the results depend on the processing

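The direction held and the calls moved often: the contigs tested had log2 fold changes of 3.63 to 7.71 under every alternative run, also where edgeR called 0 of them. For the 7 that passed the CPM filter in root alone, the filter fixed this direction in advance wherever it was used. With library totals, where 0 were called, the quasi-likelihood test gave all 10 an unadjusted p under 0.05. It did so for 18280 of the 47385 contigs tested. Brackets after the next counts hold root calls over all contigs tested, 47385 unless stated otherwise. The 5 contigs called (210) became 10 with an FDR limit of 0.05 (5042) and with edgeR's exact test (4698). They also became 10 with DESeq2 (4152) and with no filter on low counts (7594 of 217839). With library totals (255) they became 0, though all 10 still had log2 fold changes of 3.85 to 6.08. The count was 4 with limma-voom (862), 6 with DESeq2 size factors (254) and 6 with a minimum of 10 counts (268 of 58256). Leaving out 1 library gave 0 to 10 calls. With the filter renewed on the libraries left, these were 1 without leaf 3, 0 without leaf 4 and 3 of the 3 still tested without root 2 or without root 4, and with the tested contigs kept they were 10, 8, 10 and 10. A tissue left with 1 library is taken to vary like the other. The sum of the 9 contigs, which is the whole component, lost its call with library totals (log2 fold change 5.25, FDR 0.00104), without leaf 3 (5.07, FDR 0.00468, filter renewed) and without leaf 4 (5.22 and 5.36, FDR 0.00690 and 0.00266). It ran from 5.06 to 5.52 over the libraries left out. The sum of 10 gained a call at FDR 0.05 (4.71), with the exact test (4.71), limma-voom (4.68), DESeq2 (4.70) and no filter (4.67), and without root 2 (4.92 and 4.86) or root 4 (4.53 and 4.45). TR12781, alone in its component, gained one in the same settings (3.90, 3.90, 3.88, 3.90 and 3.87, then 4.13 and 4.07, 3.71 and 3.63) and without leaf 3 with the tested contigs kept (3.89). The estimate of TR12326 against the rest of its component changed sign (-0.64 to 0.13) where the filter left 2 of the 9 contigs. No contig of the 9 was called in that test under any alternative run, and 1 had an unadjusted p under 0.05 without leaf 4. Over the whole table, root calls numbered 210 and leaf calls 688, whereas the exact test gave 4698 and 6081, DESeq2 4152 and 4914, limma-voom 862 and 1639, no filter 7594 and 5488, FDR 0.05 5042 and 6534, and the libraries without leaf 4 gave 0 and 0 (filter renewed, 10850 at an unadjusted p under 0.05) or 506 and 1530 (contigs kept). Causes were not tested. No paired analysis was possible because the tissues share only 1 replicate number. Single contigs of the component rest on 3 to 22 counts in each leaf library.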

Other observations

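TR1232 was set beside other components with as many tested contigs or more. Of 667 components with at least 9 tested contigs, 14 (2.10%), TR1232 among them, had all of their tested contigs higher in root by 4-fold or more in the fitted values, and 37 had all of them higher in leaf by as much. In TR1232, 7 of the 9 contigs passed the CPM filter in the root libraries alone. It is thus among the 667 only because these 7 were higher in root, and the 2.10% is given as a description. The range of log2 fold changes within TR1232 was 1.61, beside a median range of 1.54 over the 667 components, and 52.3% of them had a narrower range. The spread of fold changes among the 9 contigs was thus near the middle of the 667. A range tends to widen with the number of contigs, and TR1232 has the smallest number admitted. Its place among components of exactly 9 contigs was not tested. Contigs without a partner, like TR12781, made up 84.0% of the 167165 components.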
